A study of Mus musculus with 9 samples.

Results

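Aminoacyl-tRNA synthetases are the enzymes that join each amino acid to its transfer RNA, the step that loads tRNA for the ribosome. Mammalian cells keep one set for translation in the cytosol and another, also encoded in the nucleus and imported, for the translation that takes place inside mitochondria. Many of the cytosolic genes, though not all, are textbook targets of the transcription factor Atf4 in the integrated stress response. The genes were taken by name from a list of 36 enzymes, all of which were in the table of 16509 genes and all of which passed the filter on low counts. Of these, 20 encode cytosolic enzymes (for phenylalanine both subunits, Farsa and Farsb) and 16 encode mitochondrial enzymes, whose symbols end in 2. Gars and Kars were counted as cytosolic, although each of these genes is known to encode the mitochondrial enzyme too.

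Messenger RNA came from MC38, a mouse colon carcinoma cell line, in 9 libraries. In 3 libraries the cells were controls (Ctrl), in 3 they were treated with Cu-Cys (coordinated copper and cystine) and in 3 with Cadict, a nanodrug that the study built from Cu-Cys, glucose oxidase and a lipid carrying GE11, a peptide that targets the EGF receptor. All groups are the same cell line with no altered gene, the labels do not say whether the replicates were separate cultures (p-values then measure only the spread between these libraries, which may be technical), and no dose or time is given for these libraries. The study's text names PBS for the controls, whereas the labels name DMSO. The table's columns call the treated groups CC and CCGE. CC was read as Cu-Cys from its initials and CCGE as Cadict from its components.

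The total count per library was 17905769 to 18293060. After scaling, 3 counts, the limit that a count of 0 allows, stood at 0.13 to 0.138 CPM (counts scaled to one library size) in Ctrl and Cu-Cys libraries and at 0.252 to 0.261 in Cadict libraries. The TMM scaling factors, which correct for differences in RNA composition, were 1.21 to 1.27 in the former and 0.64 to 0.665 in Cadict libraries. With library totals in their place, the median change of all 11949 tested genes moved by -0.95 on the log2 scale in Cadict against Ctrl. Fold changes below are therefore relative to the bulk of the transcriptome. Ratios between genes of the same library do not depend on this choice. Of the 8 epithelial markers, 6 were in the table, with summed TPM of 4.22 to 6.24 in Ctrl, 3.5 to 3.95 in Cu-Cys and 11.5 to 13.2 in Cadict libraries, and Krt8, Krt18, Epcam and Vil1 were at or near 0 in Ctrl cells. The summed TPM of 4 fibroblast markers was 261 to 283 in Ctrl, 132 to 138 in Cu-Cys and 21.3 to 26.7 in Cadict libraries, mainly Col1a2. Immune markers summed to 6.89 to 7.47 TPM in Ctrl, 4.55 to 5.63 in Cu-Cys and 14.8 to 18.2 in Cadict libraries, and endothelial markers to at most 1.31 TPM in any library. The part of these markers in the results was not tested. Over all genes the second Cadict library stood apart, with a chi-square per gene of 13.8 and 21.8 against the other Cadict libraries, which stood 3.50 apart, beside 1.86 to 4.40 within the other groups. Without that library 12 cytosolic genes still rose and 10 mitochondrial genes still fell at the limits used below in Cadict against Ctrl. Of the 12079 genes tested without it, 2416 rose and 3206 fell at these limits.

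Cadict-treated cells held far more RNA for cytosolic synthetases relative to mitochondrial ones than control cells did. Among the 20 cytosolic genes 12 rose at least 2-fold against Ctrl and 1 fell, while among the 16 mitochondrial genes 10 fell and 0 rose. Of all tested genes 20.7% rose and 27.1% fell at the same limits. These counts are with TMM scaling. With library totals 6 cytosolic genes rose and 3 fell, and 13 mitochondrial genes fell. Asparaginyl-, arginyl- and threonyl-tRNA synthetase (Nars, Rars, Tars) rose most. The mitochondrial enzymes for proline, alanine and valine (Pars2, Aars2, Vars2) fell most. Summed over the enzymes of each compartment, the ratio of cytosolic to mitochondrial counts was 13.4, 13.6 and 13.4 in the Ctrl libraries and 14.9, 14.9 and 14.6 in the Cu-Cys libraries, against 89.0, 84.6 and 85.8 in the Cadict libraries. The mean ratio was 13.5 ± 0.0703 (SD, n = 3) in Ctrl, 14.8 ± 0.159 in Cu-Cys and 86.5 ± 2.28 in Cadict cells, and the ranges of the 3 groups did not overlap. In such bulk samples fewer cells that express a gene and less of its RNA per cell cannot be told apart.

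**Figure D1:**
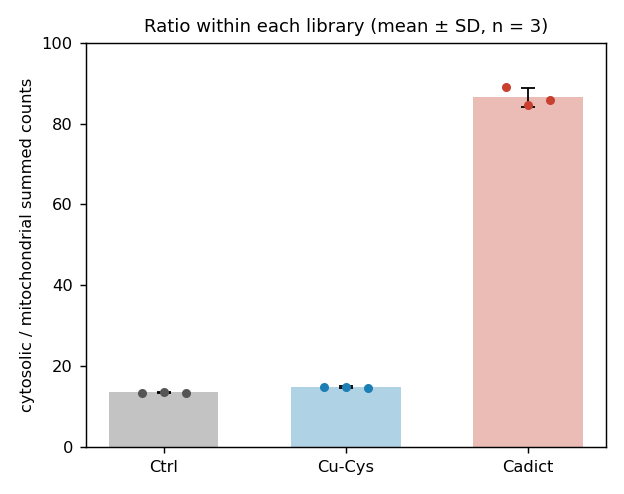
Ratio of summed cytosolic to summed mitochondrial synthetase counts within each library; points are the 3 libraries of a group, bars the mean and whiskers the SD. The Cadict libraries stood at 84.6 to 89.0 and the Ctrl libraries at 13.4 to 13.6.

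The ratio moved on both sides. Cytosolic enzymes took 0.617% to 0.627% of all counts in Ctrl libraries and 1.11% to 1.15% in Cadict libraries. Mitochondrial enzymes took 0.0459% to 0.0463% in Ctrl and 0.0129% to 0.0133% in Cadict libraries. On the deposited TPM scale, which is per transcript length, the cytosolic sum went from 4014 ± 51.7 (SD, n = 3) to 5798 ± 493 and the mitochondrial sum from 326 ± 3.69 to 86.5 ± 6.39. Leaving out Gars and Kars gave mean count ratios of 11.3, 12.4 and 77.0 in Ctrl, Cu-Cys and Cadict cells.

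The letters in front of some of these genes are shown because part of the cytosolic set is known for such sites. The C/EBP-ATF response element (searched as TGATGNAAT on both strands, N being any base) and the E-box (CACGTG, which reads the same on both strands) were looked for in RefSeq promoters of build GRCm38.p6, from 250 bases before to 50 bases after each gene's start. A promoter was matched by gene ID for 13 of the 20 cytosolic and 14 of the 16 mitochondrial genes. The response element was in 3 of the 13 cytosolic genes (Aars, Gars, Iars), or 23.1%, and in 0 of the 14 mitochondrial genes, beside 0.965% of all 32851 promoters and 0.565% of the tested genes that had a promoter. The E-box was in 4 of the 13 (Aars, Farsb, Iars, Tars) and in 1 of the 14 (Ears2), beside 7.15% of all promoters and 11.8% of those tested genes. These are matches of letters, and no match says only that these letters are not in this window. In the stretches below, written 5′ to 3′ on the gene's own strand, capitals mark the matched motif. In Aars the first is the E-box and the second the response element on the opposite strand. The motifs can share letters but did not do so in Aars. In Gars it is the response element on the opposite strand, and in Farsb and Iars the E-box. The response element of Iars lies past the gene's start and is not printed. The stretches lie at chr8:111033671-111033762 (Aars, plus strand), chr6:55037945-55038000 (Gars, plus strand), chr13:49682036-49682091 (Iars, plus strand) and chr1:78488906-78488961 (Farsb, minus strand), all upstream of the gene's start.
Aars: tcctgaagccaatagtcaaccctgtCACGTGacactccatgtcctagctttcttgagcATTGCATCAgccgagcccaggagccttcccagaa
Gars: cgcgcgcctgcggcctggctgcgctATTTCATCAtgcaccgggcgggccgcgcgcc
Iars: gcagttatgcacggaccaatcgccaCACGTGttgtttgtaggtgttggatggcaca
Farsb: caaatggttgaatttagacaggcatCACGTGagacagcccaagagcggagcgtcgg
Of these 4 genes, Aars, Gars and Iars rose at least 2-fold in Cadict cells, by 1.55, 1.70 and 1.67 on the log2 scale, and Farsb was 0.95 higher. Of the 6 cytosolic genes that rose most (Nars, Rars, Tars, Sars, Wars, Lars), only Tars and Sars had a matched promoter. Tars held an E-box and Sars held neither motif.

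Whether Cadict changed each enzyme was asked first against control cells. The call used here is the study's own, a fold change of at least 2 with an adjusted p of at most 0.001, in the quasi-likelihood test of edgeR, adjusted by Benjamini-Hochberg over all tested genes. By this call 12 of 20 cytosolic genes rose (60.0%), where 20.7% of all tested genes did, and 1 of 20 fell, where 27.1% did. Of the mitochondrial genes 0 of 16 rose and 10 of 16 fell (62.5%). DESeq2 and limma on the deposited FPKM and TPM also called 0 mitochondrial genes higher, and so did edgeR at an unadjusted p under 0.05 with the same fold. Mitochondrial falls numbered 8 with DESeq2 size factors or its Wald test, and cytosolic rises 14. With at least 10 counts in every library 9 mitochondrial genes fell, and with 1 library left out 9 to 10. Without a limit on the fold and with an adjusted p limit of 0.05, 17 cytosolic genes were higher and 3 lower, and 2 mitochondrial genes were higher and 11 lower, where 40.6% and 47.1% of all tested genes were higher and lower. The median log2 fold change was 1.61 over the cytosolic genes (from -1.66 to 2.97), -1.10 over the mitochondrial genes (from -4.18 to 0.87) and -0.13 over all tested genes. The 2 medians of the enzyme sets were 2.71 apart. The direction of the smaller changes depends on the scaling, and for Farsa, Farsb, Hars, Kars, Mars1, Fars2, Sars2 and Yars2 it turned to lower on the TPM scale, where Eprs also fell just below 0. With library totals 6 cytosolic genes stayed above the fold limit (Lars, Nars, Rars, Sars, Tars, Wars) and all 10 mitochondrial falls remained, with Ears2, Nars2 and Wars2 added.

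**Figure D2:**
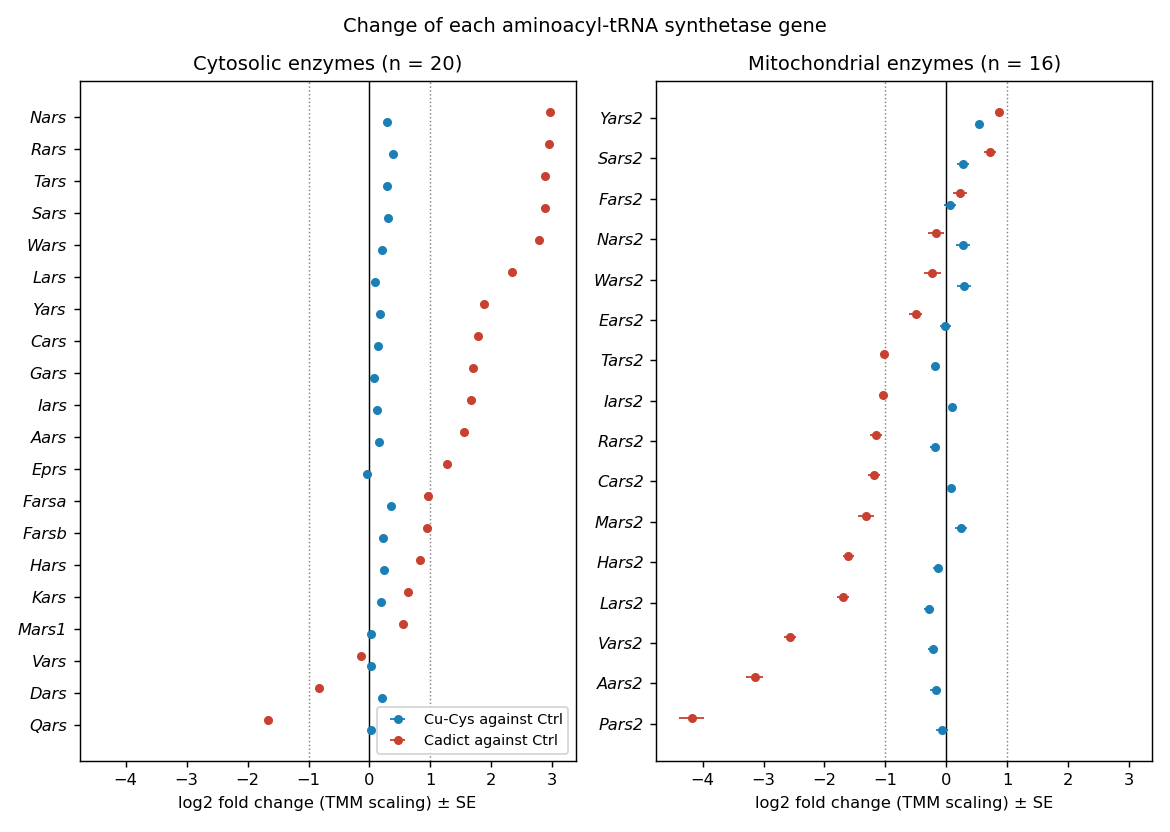
Log2 fold change of each synthetase gene against Ctrl with its standard error, cytosolic enzymes left and mitochondrial enzymes right; dotted lines mark a 2-fold change. Red points (Cadict) ran from -1.66 to 2.97 for cytosolic and from -4.18 to 0.87 for mitochondrial genes, and blue points (Cu-Cys) from -0.28 to 0.54.

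Among the cytosolic enzymes, Nars, which charges the asparagine tRNA, stood at 469, 477 and 471 CPM in Ctrl, 578, 585 and 569 in Cu-Cys and 3804, 3598 and 3661 in Cadict libraries. The 3 groups did not overlap, and every Cadict library was far above the other 6. The log2 fold change of Nars against Ctrl was 2.97 (SE 0.048), which is 7.81-fold, with an adjusted p of 1.2e-16 in edgeR's quasi-likelihood test. Rars, the arginine enzyme of the multi-synthetase complex, had 95.9, 95.2 and 94.6 CPM in Ctrl, 124, 127 and 121 in Cu-Cys and 732, 747 and 727 in Cadict libraries. Its groups did not overlap either, and its rise in Cadict cells was 2.95 (SE 0.047, edgeR adjusted p 1.1e-16). Tars, the threonine enzyme, had 181, 186 and 186 CPM in Ctrl, 227, 224 and 223 in Cu-Cys and 1415, 1279 and 1396 in Cadict libraries. All Cadict values again lay above all others, with a rise of 2.89 (SE 0.053, edgeR adjusted p 3.5e-16). Serine (Sars, 2.88), tryptophan (Wars, 2.78) and leucine (Lars, 2.35) followed. The tyrosine (Yars, 1.88), cysteine (Cars, 1.79), glycine (Gars, 1.70), isoleucine (Iars, 1.67) and alanine (Aars, 1.55) enzymes and the joint glutamate and proline enzyme (Eprs, 1.28) completed the 12 genes past the fold limit. The reads of Aars are the least certain of these, since 13.5% of the 50-base stretches of its transcripts also occur in another gene's transcripts, and for Iars 7.15% do.

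The 8 other cytosolic genes did not pass the fold limit upward. Qars, which charges the glutamine tRNA, fell. It had 93.7, 96.7 and 95.5 CPM in Ctrl and 31.1, 29.7 and 29.6 in Cadict libraries, with no overlap and a log2 fold change of -1.66 (SE 0.056, edgeR adjusted p 2.4e-13). In Cu-Cys libraries Qars stood at 101, 94.0 and 95.4 CPM, overlapping the Ctrl values. Dars, the aspartate enzyme, was lower by a smaller step, at -0.82 (SE 0.052, edgeR adjusted p 3.9e-10), and Vars, the valine enzyme, differed by only -0.13, at an edgeR adjusted p of 0.046 that was past the threshold no longer with DESeq2, among other settings. With library totals and with limma on FPKM and TPM both genes passed the fold limit downward, Dars at -1.78 and Vars at -1.09 with library totals. Both phenylalanine subunits, at 0.96 (Farsa) and 0.95 (Farsb), lay just inside the 2-fold line. The histidine (Hars, 0.84), lysine (Kars, 0.63) and methionine (Mars1, 0.55) enzymes changed less, and these 5 genes are among those whose direction turned on the TPM scale. Part of the transcript of Mars1 (1.99% of exon bases) overlaps Ddit3 on the opposite strand, and whether the counting used strand is not given in the sources used here.

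Among the mitochondrial enzymes, Pars2, the proline enzyme, fell furthest. It had 11.98, 11.2 and 11.2 CPM in Ctrl, 11.5, 9.97 and 11.2 in Cu-Cys and 0.425, 1.05 and 0.42 in Cadict libraries. The Cadict values did not overlap the others, but they rest on only 5 to 12 reads per library, beside 258 to 277 in Ctrl. Its log2 fold change was -4.18 (SE 0.21), 18.1-fold lower, with an edgeR adjusted p of 1.9e-11. Aars2, which charges the mitochondrial alanine tRNA, had 22.2, 20.5 and 23.1 CPM in Ctrl, 20.9, 17.2 and 20.2 in Cu-Cys and 2.8, 2.0 and 2.6 in Cadict libraries. Its drop of -3.14 (SE 0.14, edgeR adjusted p 4.3e-12) separated the Cadict libraries from the other 6. Vars2, the valine enzyme, had 33.9, 34.7 and 30.04 CPM in Ctrl, 29.7, 26.8 and 27.9 in Cu-Cys and 5.95, 5.40 and 5.37 in Cadict libraries. The 3 groups did not overlap, and the change against Ctrl was -2.56 (SE 0.099, edgeR adjusted p 1.0e-12). Lars2 (-1.70), Hars2 (-1.61), Mars2 (-1.32), Cars2 (-1.19), Rars2 (-1.16), Iars2 (-1.04) and Tars2 (-1.02), the enzymes for leucine, histidine, methionine, cysteine, arginine, isoleucine and threonine, fell as well. The last 2 lay just outside the fold limit.

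The 6 mitochondrial genes that did not fall 2-fold were the glutamate enzyme Ears2 (-0.50), which passed the test without a fold limit, the tryptophan enzyme Wars2 (-0.23), the asparagine enzyme Nars2 (-0.17), the phenylalanine enzyme Fars2 (0.23), the serine enzyme Sars2 (0.72) and the tyrosine enzyme Yars2 (0.87). Wars2, Nars2 and Fars2 had adjusted p values of 0.13, 0.22 and 0.065 in edgeR's quasi-likelihood test and did not pass. Sars2 and Yars2 were higher with TMM scaling, at 5.8e-06 and 2.2e-09, and these genes and Fars2 were lower with library totals and on the FPKM and TPM scales. In Ctrl and Cadict CPM 20 of 20 cytosolic and 14 of 16 mitochondrial genes did not overlap, all except Nars2 and Wars2, where 87.5% of all tested genes did not overlap in either direction.

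Levels per transcript length differed between the sets before any treatment. In Ctrl cells the cytosolic genes had 61.3 to 504 TPM (median of the gene means 144) and the mitochondrial genes 5.59 to 47.5 TPM (median 14.7), so the 2 sets did not overlap. The highest in Ctrl cells were Kars at 504 ± 2.44 TPM (SD, n = 3), Aars at 474 ± 12.2 and Nars at 444 ± 6.64, and each of these differed from the next by more than the sum of their SDs. In Cadict cells the order was another, with Nars at 1407 ± 157, Aars at 566 ± 51.5, Gars at 526 ± 22.2 and Tars at 513 ± 73.5 TPM, the last 3 of which lay within their spread of one another. In CPM, Kars, whose enzyme loads lysine, had 405, 412 and 414 in Ctrl and 628, 690.3 and 593 in Cadict libraries, and Aars 761, 795 and 762 against 2249, 2279 and 2257. Kars was thus higher in CPM at TMM scale and lower in TPM, at 317 ± 6.95 in Cadict cells. Of the mitochondrial genes Iars2 (47.5 ± 1.10 TPM) and Tars2 (47.4 ± 1.38) were highest in Ctrl cells and did not differ beyond their spread. Iars2 had 72.6, 73.0 and 71.8 CPM in Ctrl and 36.1, 36.6 and 33.1 in Cadict libraries. Tars2 went from 47.0, 49.1 and 46.8 to 22.5, 25.1 and 23.1 CPM. Both genes were well separated between these groups. For Iars2, 24.2% of the exon bases overlap a gene on the opposite strand.

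**Figure D3:**
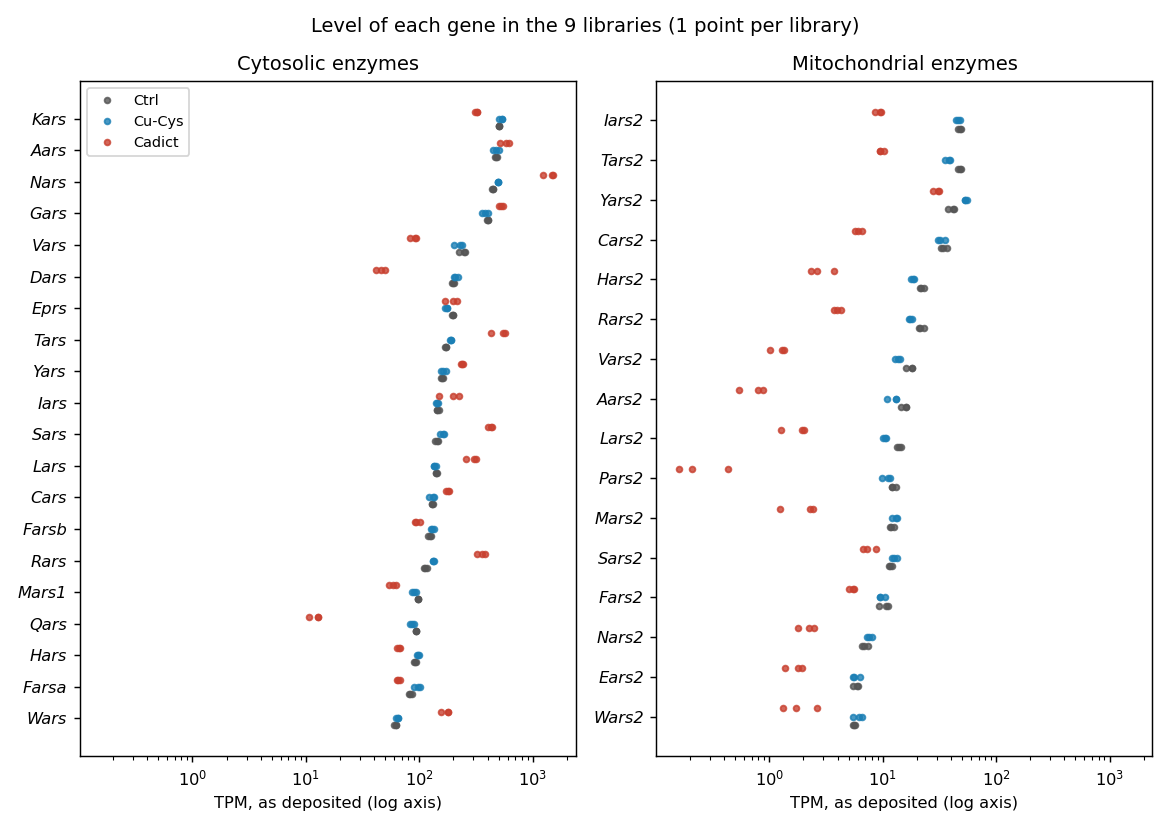
TPM of each synthetase gene in each of the 9 libraries on a log axis, sorted by the Ctrl mean. Cytosolic genes started at 61.3 to 504 TPM and mitochondrial genes at 5.59 to 47.5 TPM in Ctrl cells; the red Cadict points of all 16 mitochondrial genes lie to the left of the grey Ctrl points on this scale.

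Other genes of like level give a reference for these medians. Among the 2448 tested genes whose Ctrl level fell in the range of the cytosolic genes, the median log2 fold change in Cadict cells was 0.59, 33.8% rose 2-fold and 10.4% fell. Among the 6046 tested genes in the range of the mitochondrial genes the median was -0.42, 13% rose and 33.1% fell. The cytosolic median of 1.61 and the mitochondrial median of -1.10 stood further out than these in either direction, and the part that level plays was not tested further. Transcript lengths were close, with medians of 2255 bases in the cytosolic and 2483 in the mitochondrial set.

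To set aside scaling altogether, each mitochondrial enzyme was compared with the cytosolic enzyme for the same amino acid within the same library (Eprs for both Ears2 and Pars2, and Farsa for Fars2). The log2 ratio of cytosolic to mitochondrial counts was higher in Cadict than in Ctrl cells in 16 of 16 pairs, by a median of 2.84 and from 0.72 (phenylalanine) to 5.50 (proline). In none of the 16 pairs did the 3 Cadict ratios overlap the 3 Ctrl ratios, beside the 87.5% of single tested genes whose CPM did not overlap between these groups. Eprs over Pars2 had log2 ratios of 5.11, 5.24 and 5.25 in Ctrl, 5.19, 5.34 and 5.19 in Cu-Cys and 11.11, 9.83 and 11.15 in Cadict libraries. The second Cadict library, which stood apart over all genes, had the most Pars2 reads and was still well above every other library. Aars over Aars2 had 5.10, 5.27 and 5.05 in Ctrl, 5.45, 5.56 and 5.39 in Cu-Cys and 9.63, 10.12 and 9.74 in Cadict libraries. Rars over Rars2 had 2.67, 2.48 and 2.63 in Ctrl, 3.2, 3.19 and 3.09 in Cu-Cys and 6.59, 6.66 and 6.82 in Cadict libraries. In the alanine and arginine pairs all 3 groups were apart, with Cu-Cys between the others and nearer to Ctrl. Tyrosine, at 1.01, and phenylalanine, at 0.72, were the pairs that moved least. In the histidine pair the genes overlap each other on opposite strands, in 7.97% of the exon bases of Hars and 4.56% of those of Hars2.

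**Figure D4:**
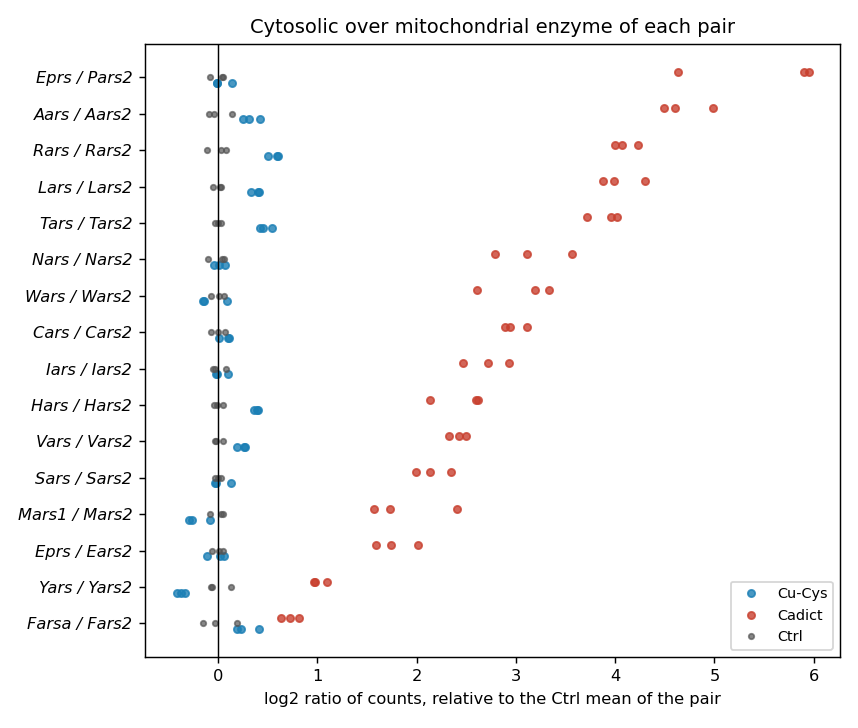
Log2 ratio of the cytosolic to the mitochondrial enzyme for the same amino acid in each library, set to the Ctrl mean of the pair. All Cadict points (red) lie right of the Ctrl points (grey) in the 16 pairs, with mean shifts of 0.72 to 5.50; Cu-Cys points (blue) have mean shifts of -0.37 to 0.57.

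The enzymes also fall into structural classes, I and II, by the fold of their catalytic domain, and some cytosolic ones sit in the multi-synthetase complex. In Cadict against Ctrl the median log2 fold change was 1.79 over the 9 class I and 1.25 over the 10 class II cytosolic genes (Eprs, which joins both folds, left out), and -1.16 over the 9 class I and -1.02 over the 7 class II mitochondrial genes. The 8 genes of the complex (Dars, Eprs, Iars, Kars, Lars, Mars1, Qars, Rars) had a median of 0.96, with 4 higher and 1 lower at the fold limit. The 12 other cytosolic genes had a median of 1.75, with 8 higher and 0 lower by edgeR, and Vars among them was lower without the fold limit and passed it with library totals. Of all tested genes 20.7% were higher and 27.1% lower at the fold limit. With library totals, only Lars and Rars of the complex and Nars, Sars, Tars and Wars of the others stayed higher. Dars of the complex was then lower at that limit, as Qars was. The range within the complex, from -1.66 for Qars to 2.95 for Rars, was wider than the gap between the medians.

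The second question was what the full nanodrug did beyond its Cu-Cys component. Against Cu-Cys-treated cells, 12 of 20 cytosolic genes rose and 2 fell (Qars and Dars) at the fold limit, where 18.6% and 23.6% of all tested genes did. Of the mitochondrial genes 0 rose and 8 of 16 fell, and again neither DESeq2, limma nor an unadjusted p under 0.05 with the same fold gave a rise. With an adjusted p limit of 0.05, 17 cytosolic genes were higher and 3 lower and 2 mitochondrial genes were higher and 13 lower, beside 40.3% and 45.6% of all tested genes. The medians were 1.47, -1.05 and -0.10 over cytosolic, mitochondrial and all tested genes. This comparison shares its Cadict libraries with the one against Ctrl, so the values of both are not separate evidence. The largest cytosolic rises were those of Nars at 2.68 and Tars at 2.60, and the largest mitochondrial fall was that of Pars2 at -4.11. The direction of Farsa, Farsb, Hars, Kars, Mars1, Fars2, Sars2 and Yars2, all above 0 with TMM scaling, turned to lower with library totals and on the FPKM and TPM scales.

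Cu-Cys alone moved these genes far less. Against Ctrl 0 of 36 passed the fold limit in either direction, by edgeR, DESeq2 or limma or at an unadjusted p under 0.05 with the same fold, where 0.167% of all tested genes rose and 1.47% fell. With an adjusted p limit of 0.05, 13 of 20 cytosolic genes were higher (65.0%) and 0 lower, where 22.6% and 22.4% of all tested genes were, and 0 were lower at an unadjusted p under 0.05 or in DESeq2 or limma. Of the mitochondrial genes 2 of 16 were higher (Sars2 and Yars2) and 3 lower (Lars2, Tars2, Vars2). The medians were 0.18 over cytosolic, 0.02 over mitochondrial and 0.01 over all tested genes. With TMM scaling 19 of 20 cytosolic genes were above 0, all except Eprs at -0.03. Qars, at the level of Ctrl, was below 0 under other settings. On the TPM scale the Cu-Cys means of Cars, Gars, Iars, Lars, Mars1 and Vars were also below the Ctrl means. The direction of these small changes thus depends on the scaling. In CPM, 15 of 20 cytosolic and 11 of 16 mitochondrial genes did not overlap between Cu-Cys and Ctrl, where 61.2% of all tested genes did not.

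The largest change with Cu-Cys was that of Yars2, the mitochondrial tyrosine enzyme, which had 24.5, 22.5 and 24.8 CPM in Ctrl, 35.8, 34.7 and 34.3 in Cu-Cys and 43.3, 45.3 and 42.2 in Cadict libraries. The 3 groups did not overlap. Its log2 fold change was 0.54 (SE 0.060, edgeR adjusted p 6.3e-06) for Cu-Cys against Ctrl. Rars was 0.38 higher (SE 0.046, edgeR adjusted p 1.3e-05), with the values given above. Farsa, the catalytic subunit for phenylalanine, had 59.5, 59.0 and 57.2 CPM in Ctrl, 78.9, 70.3 and 74.5 in Cu-Cys and 107, 125 and 109 in Cadict libraries, a difference of 0.35 (SE 0.064, edgeR adjusted p 0.00052) for Cu-Cys. On TPM the Cadict mean was the lowest for Yars2 and Farsa. In Ctrl, Cu-Cys and Cadict cells Yars2 had means of 40.7, 53.6 and 29.8 TPM and Farsa 83.45, 96.0 and 65.2. The within-library pair ratios were higher with Cu-Cys in 12 of 16 pairs, by a median of 0.057, and 9 of the 16 did not overlap Ctrl, in both directions, beside the 61.2% of single tested genes whose CPM did not overlap.

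Other genes around charged tRNA were read from a list of 21 symbols for 20 genes (Tars3 is a synonym of Tarsl2), and all 20 were tested. It holds scaffold proteins of the synthetase complex, elongation factors that carry charged tRNA to the ribosome, and editing and amidation enzymes, among others. It also holds Tarsl2, a gene like Tars that was not among the enzymes above. Tarsl2 was at -0.37 in Cadict against Ctrl (SE 0.085, edgeR adjusted p 0.00075), with a mean of 12.4 TPM in Ctrl and 3.9 in Cadict cells. In Cadict against Ctrl 6 rose and 3 fell at the fold limit, with a median log2 fold change of 0.10, beside 20.7% and 27.1% of all tested genes. Mtfmt, which formylates the mitochondrial initiator methionyl-tRNA, had 8.0, 7.53 and 6.89 CPM in Ctrl, 7.01, 7.45 and 6.89 in Cu-Cys and 0.51, 1.13 and 1.18 in Cadict libraries, at -2.98 (SE 0.20, edgeR adjusted p 8.2e-10). Dtd2, an editing enzyme that clears wrongly loaded tRNA, had 7.53, 8.57 and 9.98 CPM in Ctrl, 7.34, 6.68 and 8.25 in Cu-Cys and 2.63, 2.79 and 1.93 in Cadict libraries, at -1.83 (SE 0.175, edgeR adjusted p 7e-08). In both genes every Cadict library lay below the other 6. Eef1b2, a subunit of the factor that recharges the elongation factor with GTP, rose. It had 385, 400.4 and 409.5 CPM in Ctrl, 449.9, 467 and 468 in Cu-Cys and 1786, 2300.5 and 1602 in Cadict libraries, at 2.25 (SE 0.098, edgeR adjusted p 4.2e-12), and 8.28% of its 50-base stretches occur in other genes.

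Split by compartment, a division made after the values were seen, the 7 genes of cytosolic elongation and of the complex's scaffold (Aimp1, Aimp2, Eef1e1, Eef1a1, Eef1b2, Eef1d, Eef1g) had a median of 1.48. With TMM scaling 6 of them (85.7%) rose at the fold limit, all except Aimp2 at 0.61, beside 20.7% of all tested genes. These rises depend on the scaling too. On TPM, Aimp2 went down from a mean of 96.1 in Ctrl to 59.3 in Cadict cells and Eef1d stayed level, at 565 and 561. The means of the others were higher, with Eef1b2 going from 530 to 1009. The 6 mitochondrial partners (Gatb, Gatc, Qrsl1, Mtfmt, Tufm, Tsfm) had a median of -0.13, with 1 fall (Mtfmt). That is 16.7%, below the 27.1% of all tested genes that fell. Tufm, the mitochondrial elongation factor, was 0.76 higher with TMM scaling. On TPM it was lower, at 138 ± 3.96 (SD, n = 3) in Ctrl and 93.9 ± 2.60 in Cadict cells. The mean TPM of the other mitochondrial partners was lower as well. Of the 50-base stretches of Tufm 54.5% are shared with other genes, as are 39.4% for Eef1a1 and 44.2% for Eef1g. With Cu-Cys, 7 of the 20 passed an adjusted p of 0.05 upward and 1 downward in edgeR, beside 22.6% and 22.4% of all tested genes.

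**Figure D5:**
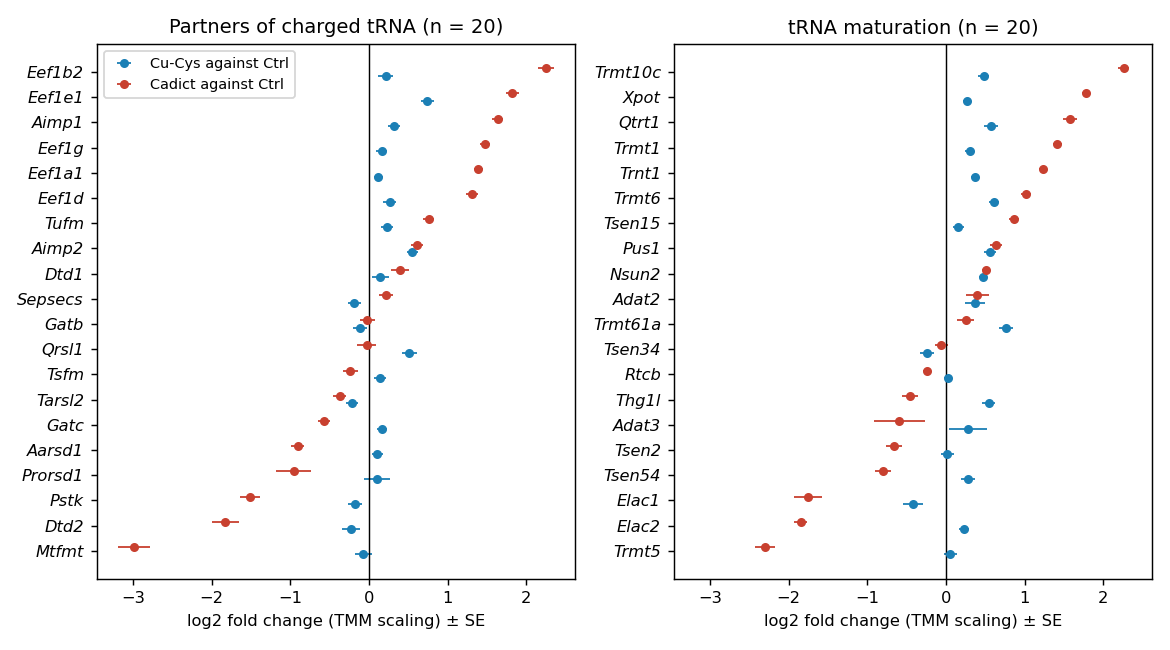
Log2 fold change against Ctrl, with its standard error, of genes that act with charged tRNA (left) and genes of tRNA maturation (right). Cadict values (red) ran from -2.98 (Mtfmt) to 2.25 (Eef1b2) on the left and from -2.29 (Trmt5) to 2.26 (Trmt10c) on the right.

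Genes that make tRNA ready for charging were taken as a list of 20, all tested. In Cadict against Ctrl 6 rose and 3 fell at the fold limit, beside 20.7% and 27.1% of all tested genes, with a median of 0.32. Trmt5, which methylates the base next to the anticodon, had 15.9, 14.0 and 17.0 CPM in Ctrl, 16.6, 15.5 and 16.7 in Cu-Cys and 3.48, 3.22 and 2.85 in Cadict libraries, at -2.29 (SE 0.13, edgeR adjusted p 7.4e-11). Trmt10c, a subunit of the mitochondrial enzyme that trims the 5′ ends of tRNA, had 26.9, 26.3 and 25.3 CPM in Ctrl, 34.8, 36.5 and 38.2 in Cu-Cys and 119, 119.9 and 137 in Cadict libraries. It rose by 2.26 (SE 0.067, edgeR adjusted p 5.3e-14) in Cadict cells, the opposite direction to most mitochondrial synthetases. Elac2, which trims the 3′ ends, had 39.8, 38.8 and 36.2 CPM in Ctrl, 48.1, 41.9 and 45.1 in Cu-Cys and 10.5, 10.6 and 10.7 in Cadict libraries, at -1.85 (SE 0.082, edgeR adjusted p 5.5e-12). Trmt5, Trmt10c and Elac2 each kept Cadict apart from Ctrl in every library. Xpot, the exporter of tRNA from the nucleus, was 1.78 higher. With Cu-Cys, 13 of the 20 passed an adjusted p of 0.05 upward and 2 downward in edgeR, beside 22.6% and 22.4% of all tested genes.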

How the data were processed

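The authors deposited a single table with an expected count (estimated per gene, not normalized), an FPKM and a TPM for each gene and library. The submitters' processing notes list HISAT2 2.1.0, Bowtie2 2.3.4.3, RSEM 1.3.1, GRCh38.p13 and GRCm39. The expected counts were rounded and fitted in R 4.3.3 with edgeR 4.0.16 (filterByExpr, TMM scaling, 1 quasi-likelihood model of 3 groups over 9 libraries), with Benjamini-Hochberg adjustment over 11949 genes per comparison. Another 21 value columns (12 of group means, 9 of counts divided by size factors) were not used. CPM values are counts scaled by the library total times its TMM factor.

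The members, gene lists and motifs were chosen with earlier results of these data known. Values in every library are given for the largest changes in each set, the highest Ctrl levels, the largest Cu-Cys changes, the 3 pairs that moved most and 3 genes of each further list. One gene of these lists is not reported here. Correlations of residuals between same-numbered libraries were -0.143 to 0.135 over 9706 genes, and the numbers were not taken to pair the libraries. Shared 50-base stretches and exon overlaps were taken from GENCODE M21. The fit was tested on simulated data. Alternatives were DESeq2 1.42.0 size factors and its Wald test, library totals, other filters, the replicate block, limma 3.58.1 on log2 of FPKM or TPM with pseudocounts of 1 and 0.1, and leaving out each library. Leaving out Gars and Kars was added after seeing the data.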

Additional observations from a re-analysis of the deposited data

How the results depend on the processing

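The direction of the medians of both enzyme sets in Cadict cells, and the gap between them, kept their sign under every alternative run, while the number of cytosolic rises depended on scaling. With library totals and with limma on FPKM or TPM at either pseudocount, 6 cytosolic genes were higher than in Ctrl and 3 lower, and 6 were higher than in Cu-Cys cells. The cytosolic median against Ctrl was then 0.66 with library totals, 0.65 on FPKM (both pseudocounts) and 0.31 on TPM (both), and the mitochondrial median -2.05, -1.80 and -2.04 (FPKM, pseudocounts 1 and 0.1) and -2.18 and -2.39 (TPM). Against Cu-Cys the cytosolic median was 0.59, 0.58 and 0.59, and 0.31 and 0.31, and the mitochondrial median -1.94, -1.63 and -1.92, and -1.97 and -2.20, in the same order. The gap was 2.45 (FPKM) and 2.49 (TPM) against Ctrl and 2.21 and 2.28 against Cu-Cys at a pseudocount of 1. Mitochondrial falls against Cu-Cys were 13 with library totals, with TPM and with FPKM at 0.1. With DESeq2 size factors the medians against Ctrl were 1.73 and -0.98, and with these or the Wald test 1 cytosolic gene was lower than in Cu-Cys cells. The ratio was 12.3, 13.3 and 67.0 from TPM and 11.3, 12.4 and 77.0 without Gars and Kars (Ctrl, Cu-Cys, Cadict).

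For Cu-Cys against Ctrl, the cytosolic median was 0.11 with library totals and on FPKM and 0.039 and 0.040 on TPM, and 3 and 2 (TPM) or 8 (FPKM at 0.1) cytosolic genes were higher. The mitochondrial median turned to -0.047 with library totals and to -0.080 and -0.085 on TPM. Mitochondrial rises numbered 1 with library totals and with limma, 5 with DESeq2 size factors and 4 without a filter, and falls 6 with library totals and 5 on TPM at 1. Leaving out 1 library gave 1 to 5 rises (1 without any Ctrl library or the first or second Cu-Cys library, 5 and 4 without the second Cadict library and Cadict library 3) and 1 to 5 falls (1 without the second Ctrl or Cu-Cys library, 5 without the second Cadict library). With the replicate block the counts in Cadict against Ctrl were 12 cytosolic rises and 10 mitochondrial falls, and in Cu-Cys against Ctrl 12 cytosolic and 3 mitochondrial rises. Of the 36 genes' calls it changed Vars in Cadict against Ctrl (edgeR adjusted p 0.053), Cars in Cu-Cys against Ctrl (0.063, lost) and Nars2 in Cu-Cys against Ctrl (0.041, gained), and no other.

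Single synthetase genes turned direction as follows in Cadict against Ctrl. Fars2, which did not pass the test, was at -0.73 with library totals, -0.51 and -0.61 on FPKM (pseudocounts 1 and 0.1) and -0.85 and -0.95 on TPM. With library totals Farsb was at -0.0087, Hars -0.12, Kars -0.32, Mars1 -0.40, Sars2 -0.24 and Yars2 -0.088. On FPKM (pseudocounts 1 and 0.1) Farsa was at -0.011 (both), Farsb -0.027 and -0.028, Hars -0.13 and -0.13, Kars -0.32 and -0.33, Mars1 -0.40 and -0.40, Sars2 -0.25 and -0.28, and Yars2 -0.10 and -0.10. On TPM Eprs was at -0.024 and -0.025, Farsa -0.35 and -0.36, Farsb -0.37 and -0.37, Hars -0.47 and -0.47, Kars -0.67 and -0.67, Mars1 -0.74 and -0.75, Sars2 -0.57 and -0.62, and Yars2 -0.43 and -0.45. Against Cu-Cys, Kars, Yars2 and Farsa were at -0.45, -0.56 and -0.28 with library totals. On FPKM they were at -0.45 and -0.45, -0.55 and -0.57, and -0.28 and -0.28, and on TPM at -0.72 and -0.72, -0.83 and -0.84, and -0.55 and -0.56. Under the same settings Farsb, Hars, Mars1, Fars2 and Sars2 turned as well, at -0.16, -0.29, -0.36, -0.72 and -0.44 with library totals. In Cu-Cys against Ctrl direction was followed only for the genes chosen for values in every library. Among these, 3 genes near 0 that did not pass the test changed sign. Qars was at -0.048 with library totals, -0.050 and -0.051 on FPKM and -0.12 on TPM (both). It was at -0.0029 with at least 10 counts in every library and at -0.015 to 0.042 with a Cu-Cys library left out. Iars2 was at -0.043 on TPM (both). Trmt5 was at -0.014 with library totals, -0.065 and -0.067 on TPM and -0.018 to 0.12 with a Ctrl library left out. Of the synthetase genes not followed, Cars, Gars, Iars, Lars, Mars1, Vars, Cars2 and Fars2 were above 0 with TMM scaling. Their mean TPM was lower in Cu-Cys than in Ctrl cells, for Cars by less than its spread. Cars had passed the test, at an edgeR adjusted p of 0.048. The other single-gene values followed were counted once per gene, comparison and alternative. Of these, 1451 kept direction and side of the threshold, 38 lost the call and 32 gained one. They come from the same libraries and are not separate evidence. The Cadict reads of Pars2, Aars2 and Mtfmt are the thinnest, and depth limits how finely their changes can be sized. The cause of these shifts was not tested beyond the change of scale itself.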
